A study of Mus musculus with 9 samples.

Results

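Interferon-stimulated genes are the genes that cells switch on when interferons signal through their receptors, and the 44 described here are known targets of type I and type II interferons in the mouse. They were chosen by gene name and are 44 of the 55322 genes in the expression table. All 44 were found, and all 44 passed the filter on low values in each of the 3 comparisons. The study asked how B cells that carry CD11b, an integrin chain best known from myeloid cells, differ from other B cells of the bone marrow (BM) during the emergency response to endotoxin. The RNA sequenced came from B cells with and without CD11b from the BM of wild-type C57BL/6 mice, taken 48 h after an intraperitoneal injection of 5 mg/kg lipopolysaccharide (LPS), and from peritoneal macrophages (PMs, CD11b+F4/80+) of untreated wild-type mice. Before the B cells were sorted, cells bearing CD3, CD4, CD8, Gr-1, NK1.1 or TER119 were depleted with antibodies. Each of the 3 groups has 3 libraries. There were no B cells of untreated mice and no PMs of LPS-treated mice among these libraries. The labels do not say whether the libraries of a group came from separate mice, so p-values measure the spread between these libraries, which may be technical. The ages of the mice are not given in the labels.

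Type I interferons bind a receptor made of IFNAR1 and IFNAR2, whose kinases JAK1 and TYK2 pass the signal to transcription factors that include STAT2 and IRF9. These act in a complex that binds the interferon-stimulated response element (ISRE) in the promoters of target genes, while interferon-gamma acts mainly through gamma-activated sequences. LPS is sensed by TLR4, which through the adaptors TICAM2 and TICAM1 leads to the synthesis of interferon-beta, so that endotoxin is a classical trigger of these genes in many cell types.

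The libraries held between 18014658 and 35251215 reads on genes. All levels are FPKM, fragment counts divided by the length of the gene and the size of the library, which can be set side by side between genes. The labels were checked against marker genes. Summed over 12 B cell markers, the FPKM was 13068 to 14914 in the CD11b- and 13115 to 16250 in the CD11b+ libraries, against 133 to 255 in PMs. Summed over 13 macrophage markers it was 41.2 to 59.4 in CD11b-, 121 to 321 in CD11b+ and 25216 to 62253 in PM libraries. *Itgam*, which encodes CD11b itself, measured 0.4, 0.251 and 0.869 FPKM in the CD11b-, 1.92, 1.31 and 1.51 in the CD11b+ and 358, 254 and 251 in the PM libraries. Summed over 10 neutrophil markers the FPKM ran from 1.74 to 3.01 for CD11b- B cells, from 217 to 1576 for CD11b+ B cells and from 5.17 to 24.0 for PMs, beside the depletion of Gr-1-bearing cells named above. The T cell markers *Cd4* and *Cd8a* and the NK cell markers *Ncr1* and *Eomes* had no read in CD11b- B cells, and the sums over both lists stayed at or under 2.88 in every library. The sum over 6 plasma cell markers was 77.8 to 137 for CD11b-, 229 to 619 for CD11b+ B cells and 86.3 to 148 for PMs, and that over 4 erythroid markers was 1.68 to 22.8, 32.3 to 43.4 and 0.0446 to 0.585. The sum over 6 monocyte markers was 22.5 to 30.0, 50.1 to 64.3 and 44.96 to 56.8, and that over 6 plasmacytoid dendritic cell markers was 2.52 to 12.3, 5.77 to 9.36 and 1.55 to 7.72. In bulk RNA, fewer cells of a type and less RNA per cell cannot be told apart.

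The promoters of the members are shown first because the ISRE is a feature through which type I interferon acts on its target genes. RefSeq promoters on GRCm38.p6 were at hand for 33 of the 44 members, with 37 start sites. The core of the ISRE was searched as GAAA, 2 bases of any kind and GAAA, on both strands of the 250 bases before each start site, with overlapping matches counted separately. It was present in 17 of the 37 member promoters (45.9%), against 2.98% of the 32851 promoters of the same length in the reference. The gamma-activated sequence, searched as TTCNNNGAA on both strands, was present in 6 of the 37 (16.2%), against 7.02% of all promoters. The ISRE core was present in 5 of 6 members with a promoter among the GBP and IRG GTPases, in 3 of 5 each of the IFIT and PKR group, the OAS group and the membrane and nucleotide effectors, and in 1 of 2 of the ISG15 system. It was present in 1 of 3 transcription factors and in 1 of 5 of the members without a shared role, and in neither *Ifih1* nor *Dtx3l*. A match of letters is a description and not a binding site, and the absence of a match says only that these letters are not in this window.

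The 200 bases before the start site are given below for 6 members that the results turn on, 5 of which had a large change against PMs or a high level in B cells and carried the core, while *Isg15* was added after its values were seen. They are written 5′ to 3′ in the direction of the gene, with the ISRE core of either strand in capitals. The windows are chr4:156200819-156201018 on the minus strand for *Isg15*, chr7:140955962-140956161 on the minus strand for *Ifitm2*, chr5:120887614-120887813 on the minus strand for *Oas1g*, chr8:71537473-71537672 on the minus strand for *Bst2*, chr19:34583329-34583528 on the plus strand for *Ifit3* and chr19:34640689-34640888 on the plus strand for *Ifit1*.
@@*Isg15*@@
@@*Ifitm2*@@
@@*Oas1g*@@
@@*Bst2*@@
@@*Ifit3*@@
@@*Ifit1*@@
The cores of *Isg15* began 78, 72 and 66 bases before the start site and overlapped each other, as did those of *Oas1g* at 18 and 12 bases and those of *Bst2* at 130 and 124 bases. *Ifitm2* had a single core at 46 bases. In *Ifit3*, at 156 and 122 bases, and in *Ifit1*, at 104 and 85 bases, the cores lay on the opposite strand and therefore read as TTTC, 2 bases and TTTC.

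The members lie on 15 chromosomes, and 22 of them lie within 200000 bases of another member, in 8 clusters (GRCm38, positions of GENCODE M21). The larger clusters are *Ifit2*, *Ifit3*, *Ifit3b* and *Ifit1* on chromosome 19 from 34550694 to 34650009, *Oas2*, *Oas3*, *Oas1g* and *Oas1a* on chromosome 5 from 120730333 to 120907521, *Gbp7*, *Gbp3* and *Gbp2* on chromosome 3 from 142530342 to 142638008, and *Parp14*, *Dtx3l* and *Parp9* on chromosome 16 from 35832874 to 35972605. Close copies make some values uncertain. Of the stretches of 100 bases in *Oas1a*, 40.9% also occurred in other genes, most often in *Oas1g*. Of those in *Ifit3*, 31.7% did so, most often in *Ifit3b*. Of those in *Ifitm2*, 34.9% did so, most often in *Gm45717*, an overlapping gene. The sources used here do not give the strand setting of the counting, which makes members whose exons overlap another gene uncertain as well. These include *Irf7* with *Phrf1*, *Irf9* with *Rnf31*, *Parp9* with *Dtx3l*, *Igtp* with *Irgm2* and *Ifi47* with *Olfr56*.

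The leading interferon-stimulated genes differed in part between B cells and PMs, with *Ifi27l2a* and *Bst2* among the most abundant in both. The median over the 44 members of the mean FPKM was 10.7 for CD11b-, 11.7 for CD11b+ B cells and 10.4 for PMs. A mean FPKM of at least 1 was reached by 41, 40 and 39 members, respectively, and one of at least 10 by 23, 26 and 22. The group mean was highest in CD11b- B cells for 16 members, in CD11b+ B cells for 12 and in PMs for 16.

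**Figure D1:**
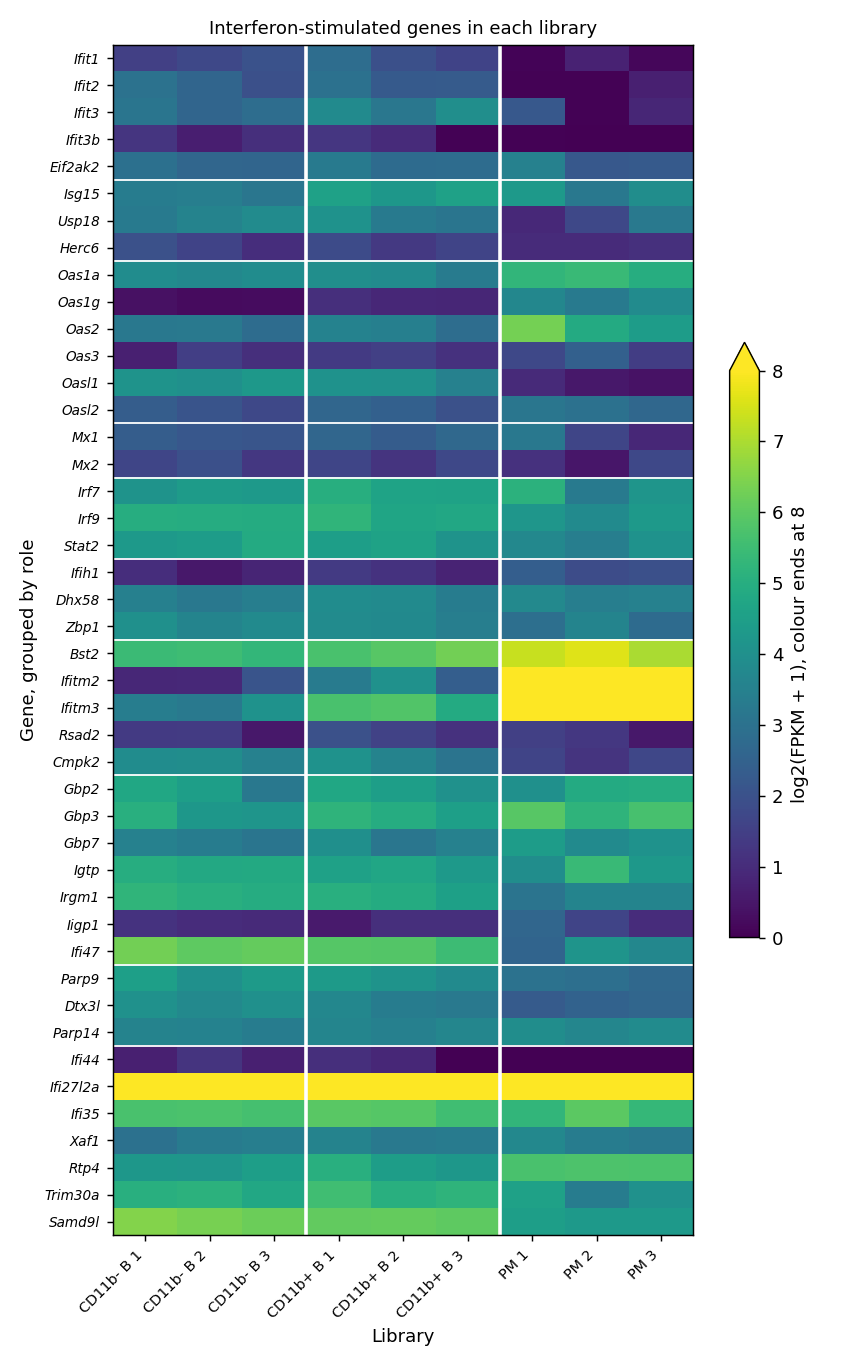
Heatmap of log2(FPKM + 1) of the 44 members (rows, grouped by role) in each of the 9 libraries (columns), with the colour scale ending at 8. PMs are brighter than both B cell groups for *Ifitm2*, *Ifitm3*, *Bst2* and *Oas2* and darker for *Ifit1*, *Ifit2*, *Ifit3b*, *Oasl1* and *Ifi44*.

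In the B cells the most abundant members were *Ifi27l2a*, *Samd9l*, *Ifi47*, *Ifi35* and *Bst2*. *Ifi27l2a*, a small membrane protein of the IFI27 family (chromosome 12 from 103442167 to 103443680), reached 442, 416 and 453 FPKM in the CD11b-, 808, 591 and 651 in the CD11b+ and 575, 558 and 330 in the PM libraries. *Samd9l*, a cytosolic restriction factor for viruses (chromosome 6 from 3372257 to 3399572), stood at 90.0, 81.8 and 72.5 in the CD11b-, 66.1, 68.4 and 63.6 in the CD11b+ and 21.3, 18.5 and 18.7 in the PM libraries. Both were high in every B cell library, and for both there was no overlap between CD11b+ and CD11b- libraries, *Ifi27l2a* being higher and *Samd9l* lower in CD11b+ B cells. *Ifi35*, a partner of the interferon-induced protein NMI, stood at 51.5, 52.6 and 48.4 in the CD11b-, 61.4, 57.8 and 46.2 in the CD11b+ and 37.7, 62.5 and 39.1 in the PM libraries, and its groups overlapped. In PMs the most abundant members were *Ifitm3*, *Ifitm2*, *Ifi27l2a*, *Bst2* and *Rtp4*. *Rtp4*, a chaperone of membrane receptors, stood at 50.7, 53.0 and 52.1 in PMs, above the 17.7, 17.4 and 21.6 of CD11b- and the 32.2, 20.7 and 17.9 of CD11b+ B cells.

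The libraries of a group differed from each other in the members as a whole. The mean over the members of log2(FPKM + 1) was 3.48, 3.38 and 3.34 in CD11b- replicates 1 to 3, 3.84, 3.60 and 3.39 in CD11b+ replicates 1 to 3, and 3.61, 3.45 and 3.42 in PM replicates 1 to 3. Of the 44 members, 32 had their highest level among the CD11b+ libraries in replicate 1. So did 33.4% of the 12143 genes that averaged 1 FPKM or more in that group, a level reached by 40 members. The lowest level was in replicate 3 for 29 members, and the share of other genes lowest there is not given here. The CD11b+ replicate 3 mean thus lay within the range of the CD11b- libraries, and the other CD11b+ means lay above it. The median coefficient of variation over members with a mean FPKM of at least 1 was 16.0% for CD11b-, 22.0% for CD11b+ B cells and 28.0% for PMs, beside 17.2%, 21.5% and 33.6% over all genes at that level. Among the members that spread most, *Mx1*, a dynamin-like GTPase, was at 8.17, 2.19 and 0.838 in PMs and *Usp18*, the protease that removes ISG15 from its targets and restrains IFNAR signaling, at 0.895, 2.32 and 8.47. These genes did not have their highest value in the same PM library.

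CD11b+ were compared with CD11b- B cells to ask whether interferon-stimulated genes differ with CD11b among B cells of the BM after LPS. The labels do not say whether libraries of both kinds came from the same mice. The comparison used limma on log2(FPKM + 1), a scale on which fold changes of genes with low FPKM are understated, with adjustment over all 21778 genes tested. None of the 44 members passed an adjusted p of 0.05 in either direction, where 0.0689% of all genes were called higher and 0% lower. At an unadjusted p under 0.05 by limma, 8 members were higher in CD11b+ B cells (4.65% of all genes) and 3 were lower (3.04%). Median-ratio scaling and edgeR on the underlying reads also called 0 members, where they called 0.0551% and 0.269% of all genes higher and 0% lower, while DESeq2 called 5 higher, *Isg15*, *Oas1g*, *Ifitm2*, *Ifitm3* and *Ifi27l2a*, and 0 lower, where it called 1.45% of all genes higher and 0.282% lower. The CD11b+ libraries all lay above the CD11b- libraries for 8 members (8.63% of all genes) and all below for 4 (6.32%), and for 32 the groups overlapped. For a single gene, the exact two-sided permutation test of 3 libraries against 3 cannot give a p below 0.1. The median log2 fold change was 0.17 over the members and 0.03 over all genes, and without CD11b+ replicate 1 the members' median was 0.03. The log2 fold changes of the members ran from −0.51 to 1.96, with 26 above and 18 below 0.

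**Figure D2:**
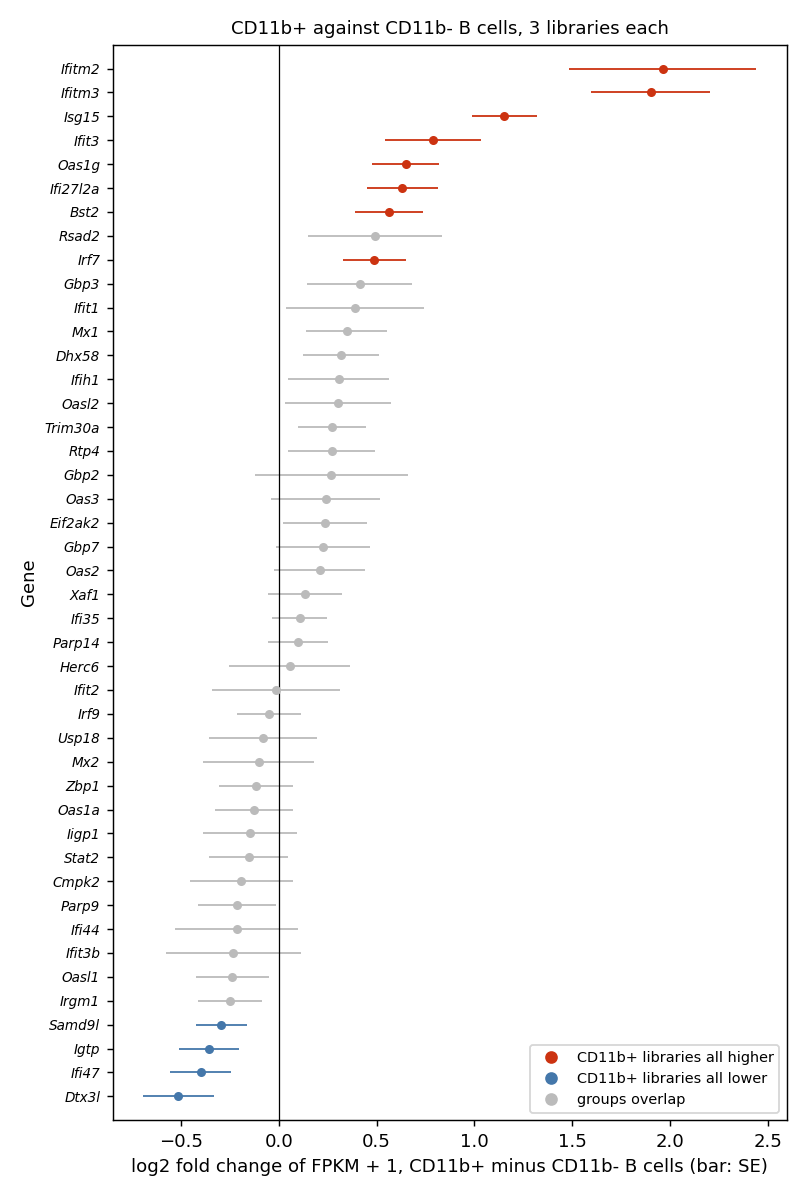
Log2 fold change of FPKM + 1 (points, with the standard error as bars) between CD11b+ and CD11b- B cells, 3 libraries each, for the 44 members. Red points mark the 8 members whose CD11b+ libraries were all higher and blue points the 4 whose CD11b+ libraries were all lower, and none passed the adjusted threshold in limma.

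Among the 8 members whose CD11b+ libraries were all higher, *Isg15*, *Ifitm3* and *Ifitm2* had the largest log2 fold changes on the log2(FPKM + 1) scale, while by the ratio of means *Oas1g* (4.14-fold) came between *Ifitm2* (5.84-fold) and *Ifitm3* (3.99-fold). *Isg15*, a ubiquitin-like protein that is attached to other proteins (chromosome 4 from 156199424 to 156200818), measured 9.29, 9.78 and 7.81 FPKM in the CD11b- and 23.0, 17.8 and 22.8 in the CD11b+ libraries, from 176 to 240 and from 327 to 566 reads. Every CD11b+ library was thus well above every CD11b- library, and the PM libraries, at 18.5, 8.13 and 14.2, spread over the range between them. The mean was 2.37-fold higher in CD11b+ B cells, and the log2 fold change was 1.15 (standard error 0.17, adjusted p = 0.0807 by limma). Over 17 alternatives the log2 fold change of *Isg15* stayed between 1.07 and 1.33 and its adjusted p ran from 0.00115 to 0.656, and 1 of these, DESeq2, called it. Its partners *Usp18* and *Herc6*, a ligase that attaches ISG15 in the mouse, showed no separation, with log2 fold changes of −0.08 (standard error 0.28) and 0.06 (standard error 0.31).

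*Ifitm3* and *Ifitm2* encode interferon-induced membrane proteins that hinder the fusion of viruses with the cell, and lie in one cluster on chromosome 7 from 140954837 to 141010770. The FPKM of *Ifitm3* was 9.55, 8.45 and 16.1 in the CD11b- libraries, 51.6, 55.7 and 28.7 in the CD11b+ libraries and 2817, 4715 and 2594 in PMs. *Ifitm2* was at 0.869, 0.875 and 3.19, at 9.04, 15.5 and 4.24 and at 330, 854 and 520, respectively. For both genes CD11b- replicate 3 was the highest of its group, CD11b+ replicate 3 the lowest of its group, and the PMs lay far above all B cell libraries. In CD11b+ against CD11b- B cells the log2 fold change was 1.90 for *Ifitm3* (standard error 0.30, adjusted p = 0.111 by limma) and 1.96 for *Ifitm2* (standard error 0.48, adjusted p = 0.350). Without CD11b+ replicate 3, *Ifitm3* passed the threshold in limma, with a log2 fold change of 2.19 and an adjusted p of 0.0496, and over 17 alternatives its adjusted p ran from 7.94e-06 to 0.656.

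Neutrophil and macrophage markers also differed between these libraries. Among the CD11b+ libraries the sum over the 10 neutrophil markers was 652, 1576 and 217 in replicates 1 to 3, and that over the 13 macrophage markers was 321, 299 and 121. Of the 10 neutrophil markers 9, and of the 13 macrophage markers 11, were higher in every CD11b+ than in every CD11b- library. Replicate 3, the lowest CD11b+ library for *Ifitm2* and *Ifitm3*, was also the lowest for both sums, and CD11b- replicate 3, the highest of its group for both genes, had the highest macrophage sum of its group (59.4 against 41.2 and 42.6) but the lowest neutrophil sum (1.74 against 1.97 and 3.01). The sum over the 6 monocyte markers ran in another order, at 27.9, 30.0 and 22.5 in CD11b- and 51.8, 50.1 and 64.3 in CD11b+ replicates 1 to 3. *Oas1g*, at 1.09, 0.865 and 0.800 in CD11b+ replicates 1 to 3, had the order of the macrophage sum. In CD11b- replicates 1 to 3, at 0.282, 0.184 and 0.200, it did not. *Isg15* and *Bst2* stood at 22.8 and 78.0 in replicate 3, at or near the top of the group. Sums over other lists were highest in that replicate, that over the 6 plasma cell markers at 264, 229 and 619, with 3 of the 6 higher in every CD11b+ than in every CD11b- library, and that over the 6 plasmacytoid dendritic cell markers at 5.77, 7.37 and 9.36, with 2 of the 6 higher. Among the CD11b+ libraries the latter had the order of *Bst2*, and the monocyte and plasma cell sums had the order of *Ifit3*. Among the CD11b- libraries these orders did not hold. The plasmacytoid dendritic cell sum was 2.87, 2.52 and 12.3 there, and *Bst2* was at 42.4, 45.2 and 38.2. *Ifit3* was at 7.68, 5.09 and 6.24 in CD11b- replicates 1 to 3, where the plasma cell sum was 77.8, 86.2 and 137. The erythroid sum was lowest in CD11b+ replicate 3 as well, at 42.6, 43.4 and 32.3, with 2 of the 4 markers higher in every CD11b+ than in every CD11b- library. The B cell, T cell and NK cell sums were highest in that replicate. With 3 libraries and this many lists, shared orders are easily met. The part of transcripts of any of these cell types in the differences of the members was not tested.

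**Figure D3:**
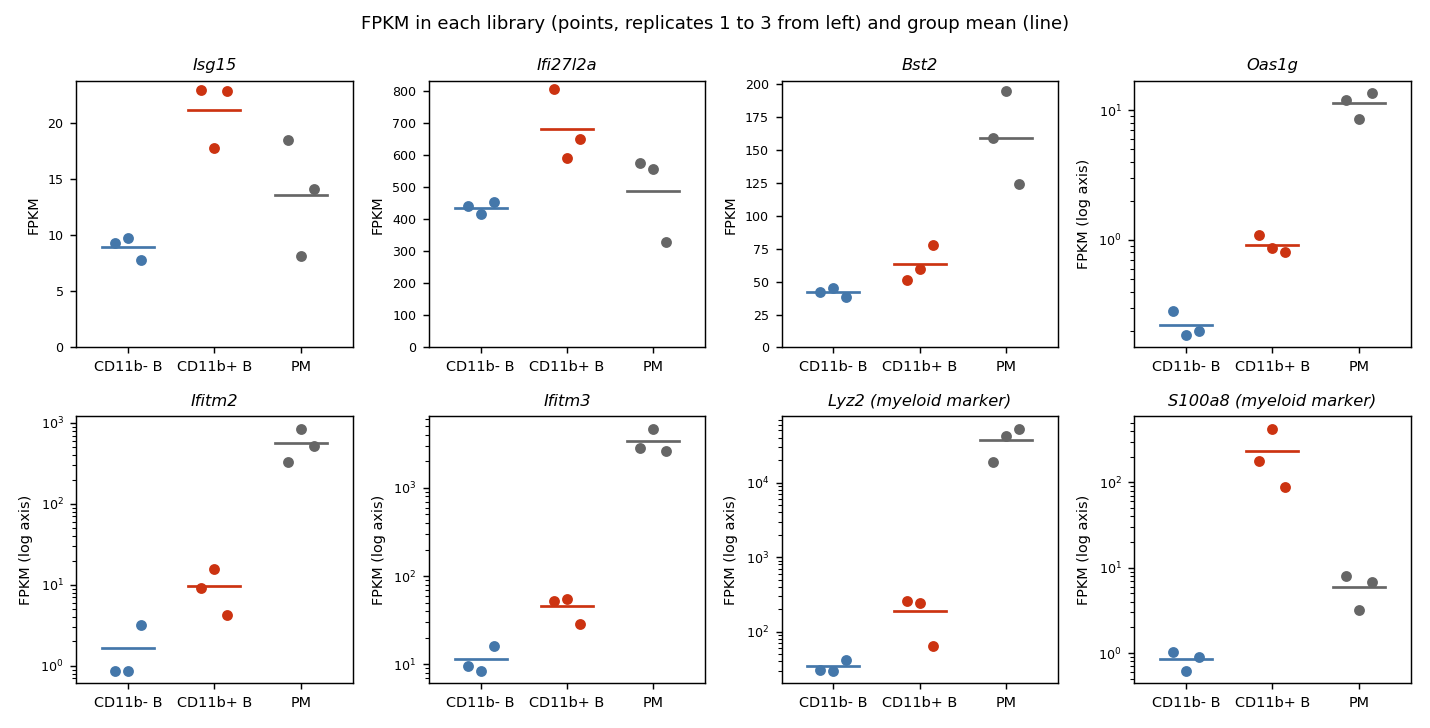
FPKM in each library (points, replicates 1 to 3 from left) with the group mean (line) for 6 members whose CD11b+ libraries all lay above the CD11b- libraries and for the myeloid markers *Lyz2* and *S100a8*. The axes start at 0 for *Isg15*, *Ifi27l2a* and *Bst2* and are logarithmic for the other genes, and PMs exceed the B cells most for *Ifitm2*, *Ifitm3* and *Lyz2*.

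The other 5 members of this group had smaller differences on the log2(FPKM + 1) scale. *Bst2* encodes tetherin, which holds budding virus at the cell surface (chromosome 8 from 71534255 to 71537456). Its FPKM was 42.4, 45.2 and 38.2 in CD11b- and 51.5, 60.0 and 78.0 in CD11b+ B cells, and its log2 fold change was 0.56 (standard error 0.17, adjusted p = 0.499 by limma). The mean of *Ifi27l2a*, whose values are given above, was 1.56-fold higher in CD11b+ B cells, with an adjusted p of 0.460 by limma, and DESeq2 called it. *Oas1g*, an oligoadenylate synthetase that answers double-stranded RNA, was low in both groups, at 0.282, 0.184 and 0.200 and at 1.09, 0.865 and 0.800, from 15 to 22 and from 53 to 75 reads. Its neighbour *Oas1a*, which shares part of its sequence, was at 13.7, 12.4 and 13.9 in CD11b- and 14.6, 13.5 and 8.97 in CD11b+ B cells and overlapped. *Ifit3*, whose product binds foreign RNA together with other IFIT proteins, was at 7.68, 5.09 and 6.24 and at 13.2, 8.06 and 14.3, and its log2 fold change was 0.79 (standard error 0.25, adjusted p = 0.504 by limma). Its copy *Ifit3b* was at 1.38 and 0.993 in CD11b+ replicates 1 and 2 but at 0.0284 (2 reads) in replicate 3, the library in which *Ifit3* was highest. *Irf7*, the transcription factor that amplifies interferon-alpha synthesis, was at 16.4, 19.8 and 18.5 in CD11b- and 31.2, 23.8 and 23.4 in CD11b+ B cells. Its log2 fold change was 0.49 (standard error 0.16, adjusted p = 0.529 by limma).

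The 4 members whose CD11b+ libraries all lay below the CD11b- libraries were *Dtx3l*, *Ifi47*, *Igtp* and *Samd9l*. *Dtx3l*, a ubiquitin ligase that works with PARP9, was at 15.5, 12.6 and 15.3 in CD11b- and 12.0, 9.32 and 8.36 in CD11b+ B cells. *Ifi47*, an immunity-related GTPase (chromosome 11 from 49076587 to 49096974), was at 76.9, 64.4 and 67.7 and at 58.0, 57.2 and 43.3. *Igtp*, a GTPase of the same family that acts on vacuoles of intracellular pathogens, was at 30.7, 27.6 and 27.9 and at 22.9, 25.6 and 18.7. All 3 were lowest in CD11b+ replicate 3, and the groups lay close together. The log2 fold changes were −0.51 for *Dtx3l* (standard error 0.18), −0.40 for *Ifi47* (standard error 0.16), −0.36 for *Igtp* (standard error 0.15) and −0.29 for *Samd9l* (standard error 0.13), with adjusted p from 0.582 to 0.659 in limma. The related GTPase *Irgm1*, a regulator of that family, came next, at 36.6, 32.3 and 30.0 and at 32.0, 29.1 and 22.4, and its groups overlapped.

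By role, the direction was mixed. Of the 7 GBP and IRG GTPases, which are typical targets of interferon-gamma, 3 had a positive and 4 a negative log2 fold change, with a median of −0.15. The *Gbp2*, *Gbp3* and *Gbp7* values were the positive ones, from 0.23 to 0.41, and all of them overlapped between the groups. Of the 6 OAS genes 4 were positive (median 0.23), of the 5 IFIT and PKR genes 3 (median 0.24), and of the 5 membrane and nucleotide effectors 4 (median 0.56). In the last group *Rsad2*, which encodes viperin, was at 0.432 to 1.6 in CD11b- and 1.22 to 2.97 in CD11b+ B cells, and its neighbour *Cmpk2*, a mitochondrial nucleotide kinase, had a log2 fold change of −0.19. The 3 sensors of foreign nucleic acid, *Ifih1*, *Dhx58* and *Zbp1*, had log2 fold changes of 0.31, 0.32 and −0.12. *Irf9* and *Stat2*, which belong to the ISRE-binding complex, were at −0.05 and −0.15.

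The B cells were set against PMs to place the levels of both B cell groups beside a myeloid cell. Cell type, tissue and LPS treatment all differ in these comparisons and cannot be told apart, and both comparisons use the same 3 PM libraries. In CD11b+ B cells limma called 12 members higher, where 21.5% of 22102 genes were called higher, and 7 lower, where 8.78% were (30.3% in either direction). In CD11b- B cells it called 15 higher, where 25.8% of 20985 genes were called higher, and 11 lower, where 11% were (36.7% in either direction). The groups did not overlap for 28 members in the first comparison, 17 higher (34.3% of all genes) and 11 lower (12.4%), and also for 28 in the second, 16 higher (36.1%) and 12 lower (15.2%). The members' median log2 fold change was 0.49 in CD11b+ and 0.12 in CD11b- B cells, beside 0.25 and 0.24 over all genes.

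These splits depend on the scale between libraries. With median-ratio size factors the median of all genes moved by −0.13 in CD11b+ and −0.16 in CD11b- B cells, and the share of higher genes among all calls fell from 71.0% to 53.3% and from 70.1% to 52.5%. The members' counts then became 9 higher and 12 lower in CD11b+ B cells (13.2% and 11.6% of all genes) and 11 higher and 15 lower in CD11b- B cells (16.2% and 14.7%). The members' median became 0.10 in CD11b+ and −0.33 in CD11b- B cells. With edgeR and DESeq2 the median was below 0 in both B cell groups, and without PM replicate 3 it was −0.038 in CD11b- B cells in limma, so its sign was not stable. The calls of 7 higher and 7 lower members in CD11b+ B cells, and of 10 higher and 11 lower members in CD11b- B cells, held under median-ratio scaling, edgeR and DESeq2. The share of all genes whose calls held in this way is not given here, so these counts do not set the members apart.

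**Figure D4:**
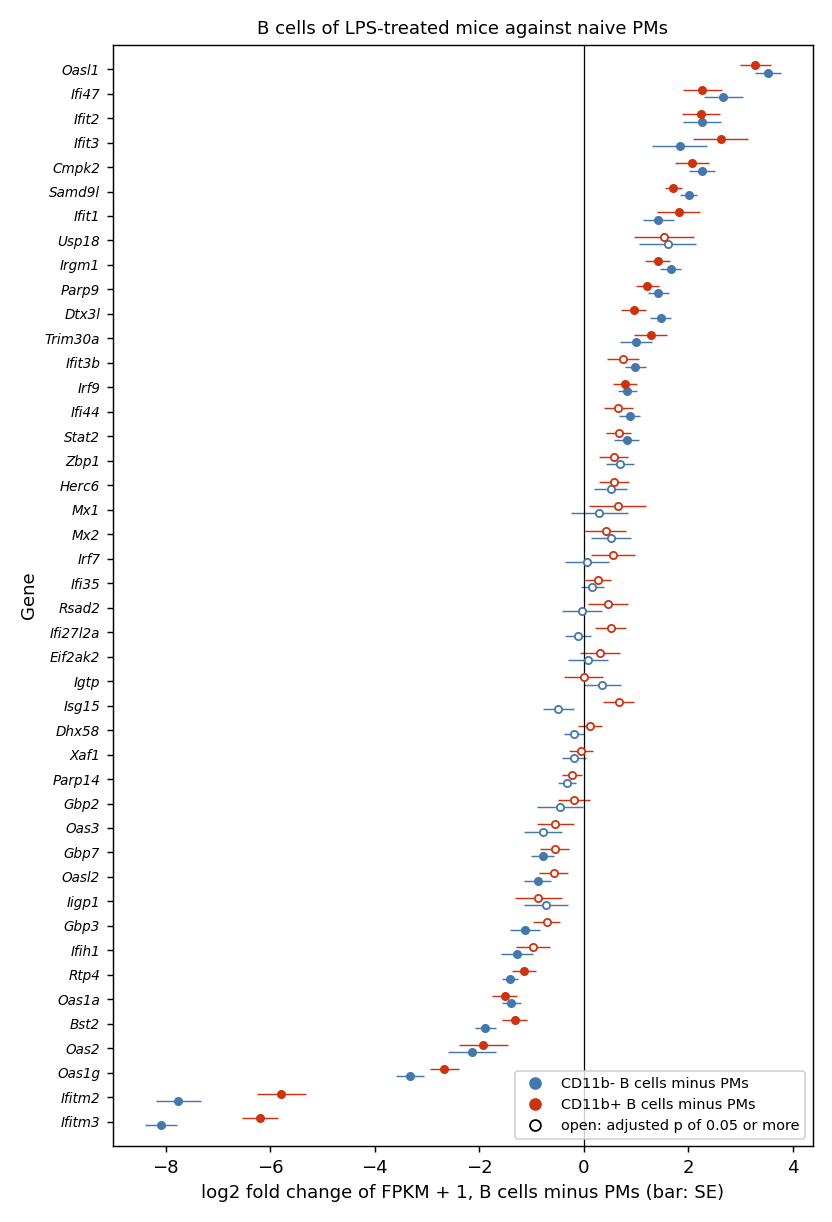
Log2 fold change of FPKM + 1 (points, with the standard error as bars) of CD11b+ (red) and CD11b- (blue) B cells against naive PMs for the 44 members, with open points for an adjusted p of 0.05 or more in limma. Both B cell groups share the 3 PM libraries. *Oasl1* lies at 3.28 and 3.52 and *Ifitm3* at −6.19 and −8.09.

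On the log2(FPKM + 1) scale, which holds back genes of low FPKM such as *Ifi44*, *Ifit3b* and *Ifit1*, the genes with the largest excess in B cells were *Oasl1*, *Ifi47*, *Ifit2* and *Cmpk2*, together with *Ifit3* in CD11b+ and *Samd9l* in CD11b- B cells. *Oasl1* encodes an OAS-like protein without synthetase activity that restrains the translation of *Irf7* (chromosome 5 from 114923240 to 114937915). Its FPKM was 16.3, 15.1 and 18.0 in CD11b-, 16.1, 15.5 and 10.6 in CD11b+ and 0.915, 0.420 and 0.304 in PM libraries. All B cell libraries thus lay far above PMs, with means 30.2-fold and 25.7-fold higher and log2 fold changes of 3.52 (standard error 0.25, adjusted p = 3.70e-05 by limma) in CD11b- and 3.28 (standard error 0.30, adjusted p = 0.000122) in CD11b+ B cells. *Ifi47* was at 4.98, 16.6 and 12.0 in PMs, and its mean was 6.22-fold higher in CD11b- and 4.72-fold higher in CD11b+ B cells (adjusted p = 0.00124 and 0.00310 by limma). *Cmpk2* was at 14.0, 14.2 and 10.4 in CD11b-, 16.0, 11 and 7.46 in CD11b+ and 2.11, 1.32 and 2.24 in PM libraries. Its log2 fold changes were 2.26 and 2.07, while its neighbour *Rsad2* overlapped between B cells and PMs.

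The IFIT genes, whose products bind viral RNA, were low in PMs but uneven among them. *Ifit2* was at 7.10, 5.09 and 2.91 in CD11b-, 6.94, 3.81 and 3.91 in CD11b+ and 0.0424, 0.0436 and 0.631 in PM libraries, from 3 to 50 reads in PMs. Its log2 fold changes were 2.25 (adjusted p = 0.00263 by limma) and 2.24 (adjusted p = 0.00243). *Ifit1* was at 0.0627, 0.709 and 0.0933 in PMs and between 1.87 and 6.29 in the B cells, and was called higher in both B cell groups by limma and by DESeq2 but not by edgeR. *Ifit3* was at 3.56, 0.0392 and 0.795 in PMs, below every B cell library, with log2 fold changes of 1.83 in CD11b- and 2.62 in CD11b+ B cells. Its call in CD11b+ B cells was lost with edgeR. Its call in CD11b- B cells was lost under median-ratio scaling, edgeR and DESeq2, and without each of the libraries but PM replicate 1 (adjusted p from 0.0628 to 0.109 by limma). *Ifit3b* and *Ifi44* had 1 read each over the 3 PM libraries, against 203 and 537 reads over the CD11b- libraries. Both were called higher in CD11b- B cells, while in CD11b+ B cells, where replicate 3 held 2 and 4 reads, they did not pass in limma (adjusted p = 0.103 and 0.106), although DESeq2 called both. The kinase *Eif2ak2* (PKR), in contrast, was at 3.64 to 10.4 in PMs and overlapped both B cell groups.

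Other members that were called higher in both B cell groups were *Samd9l*, *Irgm1*, *Parp9*, *Dtx3l*, *Trim30a* and *Irf9*. *Samd9l* had log2 fold changes of 2.0 (standard error 0.16) in CD11b- and 1.71 (standard error 0.16) in CD11b+ B cells. *Irgm1* was at 7.37, 11.1 and 11.2 in PMs, and its mean was 3.33-fold and 2.81-fold higher in the B cells. *Parp9*, an ADP-ribosylation enzyme, and *Dtx3l*, which forms a complex with it, were 2.97-fold and 3.14-fold higher in CD11b- and 2.54-fold and 2.15-fold higher in CD11b+ B cells, although their overlapping exons make the division of reads between them uncertain. Their neighbour *Parp14* was at 11.9 to 14.1 in PMs, just above the 9.22 to 11.8 of the B cells, and was not called by limma, although median-ratio scaling, edgeR and DESeq2 called it lower in both B cell groups. The calls of *Irf9* and *Trim30a*, which dampens signaling from Toll-like receptors, were lost under median-ratio scaling in both comparisons, as was that of *Dtx3l* in CD11b+ B cells. *Stat2* was called higher in CD11b- B cells by limma (adjusted p = 0.0323), with a log2 fold change of 0.82, a call that was lost under that scaling as well.

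The members that were lower in B cells than in PMs were led by *Ifitm3* and *Ifitm2*. The mean FPKM of *Ifitm3* in PMs was 3375 ± 1166 (SD, n = 3), which was 297-fold above CD11b- and 74.4-fold above CD11b+ B cells. For *Ifitm2* the PM mean of 568 ± 265 was 345-fold and 59.2-fold higher. Log2 fold changes were −8.09 and −6.19 for *Ifitm3* (adjusted p = 1.68e-06 and 8.49e-06 by limma) and −7.75 and −5.79 for *Ifitm2* (adjusted p = 9.98e-06 and 6.62e-05). *Bst2* was at 159, 195 and 124 in PMs, 3.80-fold above CD11b- and 2.52-fold above CD11b+ B cells. *Rtp4* was 2.75-fold and 2.20-fold higher in PMs than in CD11b- and CD11b+ B cells, and varied by little among the PM libraries.

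The OAS genes parted. *Oas1a* was at 37.8, 41.8 and 30.6 in PMs, and its mean was 2.75-fold above CD11b- and 2.97-fold above CD11b+ B cells. *Oas1g* was at 12.1, 8.56 and 13.5, 51.3-fold and 12.4-fold above the B cells. *Oas2* was at 8.13, 8.45 and 6.06 in CD11b-, 10.8, 9.97 and 6.27 in CD11b+ and 79.8, 28.5 and 20.7 in PM libraries. All PM libraries lay above the B cells for these 3 genes, which make oligoadenylates that activate RNase L. The call of *Oas2* in CD11b+ B cells was lost without CD11b+ replicate 2 (adjusted p = 0.0580 by limma) or replicate 3 (0.0760). *Oasl2*, which lies beside *Oasl1* on chromosome 5 from 114896936 to 114937915, was at 7.81, 6.96 and 5.42 in PMs against 2.34 to 4.13 in CD11b- B cells, opposite in direction to *Oasl1*, and was called lower there (log2 fold change −0.88, adjusted p = 0.0324 by limma). In CD11b+ B cells its log2 fold change was −0.58 (adjusted p = 0.154 by limma), and median-ratio scaling, edgeR and DESeq2 called it lower there too. *Oas3* overlapped in both comparisons and was not called by limma, while DESeq2 called it lower in both B cell groups and edgeR did so in the CD11b- group.

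In CD11b- B cells *Ifih1* (MDA5), a sensor of long double-stranded RNA, and the GTPases *Gbp3* and *Gbp7* were also called lower than in PMs. *Ifih1* was at 1.08, 0.418 and 0.772 in CD11b-, 1.54, 1.24 and 0.733 in CD11b+ and 4.29, 2.6 and 2.91 in PM libraries, and every PM library lay above every B cell library. Its log2 fold change was −1.28 in CD11b- (adjusted p = 0.0128 by limma) and −0.97 in CD11b+ B cells (adjusted p = 0.0527). *Gbp3* was at 59.7, 36.1 and 50.1 in PMs, against 17.1 to 31.7 in CD11b- and 21.9 to 36.0 in CD11b+ B cells, with adjusted p of 0.0184 and 0.0729 by limma. Median-ratio scaling, edgeR and DESeq2 called *Ifih1*, *Gbp3* and *Gbp7* lower in CD11b+ B cells as well. That these members passed in limma in CD11b- and not in CD11b+ B cells does not show that the B cell groups differ, and between those groups their libraries overlapped.

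Of the 18 members called in neither comparison by limma, all but *Usp18*, *Herc6*, *Parp14* and *Ifi27l2a* overlapped between PMs and both B cell groups. Those that overlapped include *Isg15*, *Irf7*, *Mx1*, *Mx2*, *Gbp2*, *Igtp* and *Ifi35*. *Isg15* had log2 fold changes of 0.66 in CD11b+ and −0.49 in CD11b- B cells against PMs, with adjusted p of 0.131 and 0.234 by limma. In CD11b- B cells DESeq2 and median-ratio scaling called *Isg15* lower than in PMs. Among the 33 members with a promoter sequence, the ISRE core was present in 4 of the 11 called higher against PMs in CD11b+ B cells, 4 of the 5 called lower and 9 of the 17 not called. In CD11b- B cells it was present in 6 of 14, 6 of 9 and 5 of 10.

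The wider interferon pathway was described with 42 further genes, of which 34 passed the filter. The interferon genes themselves were barely read. *Ifnb1* had 2 reads, both in CD11b+ replicate 2, *Ifna2* had 1 read in CD11b+ replicate 3, and *Ifna1*, *Ifna4*, *Ifna5*, *Ifnl2* and *Ifnl3* had none in any library. With 0 reads, a level of up to 3 reads per group stays within counting error, and these values do not bear on interferon made by other cells or at earlier times. *Ifng*, which encodes interferon-gamma, had 21, 15 and 13 reads in CD11b-, 2, 2 and 0 in CD11b+ and 0, 0 and 8 in PM libraries. At these low counts every CD11b- library was above every CD11b+ library, the log2 fold change being −0.41 (standard error 0.12, adjusted p = 0.499 by limma), and an annotated gene, *Gm49751*, overlaps it.

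Between the B cell groups limma called 0 of the 34 pathway genes, with 1 higher and 5 lower at an unadjusted p under 0.05 (4.65% and 3.04% of all genes), and edgeR also called 0. Their median log2 fold change was −0.11. DESeq2 called 1, *Ifnlr1*, a receptor chain for interferon-lambda, which was at 0.158, 0.226 and 0.351 in CD11b- and 1.38, 1.5 and 0.549 in CD11b+ B cells (adjusted p = 0.507 by limma). The 5 lower genes were *Ifng*, *Jak1*, *Irf8*, *Ddx58* and *Pias1*. Against PMs, limma placed 11 of the 34 pathway genes higher and 5 lower for CD11b+ (21.5% and 8.78% of all genes), and 14 higher and 6 lower for CD11b- B cells (25.8% and 11%).

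The receptor chains for type I interferon differed in opposite directions from PMs. *Ifnar1* was at 29.4, 26.8 and 24.0 in CD11b-, 21.2, 25.2 and 22.6 in CD11b+ and 11.5, 16.7 and 15.3 in PM libraries, and was called higher in both B cell groups by limma but not by DESeq2 or edgeR. *Ifnar2* was at 21.0, 21.4 and 21.0, at 23.2, 20.7 and 15.6 and at 72.3, 66.5 and 83.3, and was called lower by all 3 tools. Of the transcription factors, *Irf8* had the largest difference, at 122, 122 and 130, at 96.5, 107 and 99.0 and at 19.96, 16.4 and 16.2, with log2 fold changes of 2.77 in CD11b- and 2.46 in CD11b+ B cells. Among the sensors and adaptors, *Sting1*, the adaptor of cytosolic DNA sensing, was 7.80-fold and 7.11-fold higher in CD11b- and CD11b+ B cells, while *Cgas*, the enzyme upstream of it, was 3.78-fold and 3.63-fold higher in PMs. *Ddx58*, which encodes the RNA sensor RIG-I, was 5.03-fold and 3.98-fold higher in the B cells, opposite to *Ifih1*. *Tlr4*, the LPS receptor, was at 3.70 to 4.12 in CD11b- and 1.43 to 3.76 in CD11b+ B cells and 4.02 to 7.29 in PMs, and was not called by limma, whereas edgeR and DESeq2 called it lower in both B cell groups than in PMs. Among genes that restrain the signal, *Socs1* was called higher in both B cell groups than in PMs, in CD11b- B cells not under median-ratio scaling, and *Socs3* was 9.17-fold and 7.48-fold higher in PMs than in CD11b- and CD11b+ B cells.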

How the data were processed

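RNA-seq libraries (9) were assigned to CD11b+ B cells, CD11b- B cells or PMs, 3 each, by their labels. The authors amplified full-length cDNA (SMART-seq HT), trimmed read pairs (Trim Galore 0.4.4, Trimmomatic 0.36, cutadapt 1.16, per the submitters' processing notes), mapped them to GRCm38 with STAR 2.7.2b and counted reads on genes with featureCounts 1.6.1. The authors deposited FPKM for 55322 genes, and, for genes selected by a p-value, a second table with a normalized signal (each library's counts over its size factor). The labels also name GRCm39, and the gene positions in the tables were not used for coordinates. Positions are those of GENCODE M21 by identifier.

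Values were computed here as follows. FPKM times length gave whole reads for 100% of values, within 0.05 of a read, and the second table gave the same reads. These recovered reads were used for depth and for the count models, edgeR 4.0.16 (quasi-likelihood) and DESeq2 1.42.0, which the authors also used (1.20.0). Reads from amplified cDNA are not molecules, so statements on 0 reads hold for counting error alone. Groups were compared mainly with limma 3.58.1 in R 4.3.3 (trend, two-sided) on log2(FPKM + 1), in the 6 libraries of each comparison, keeping genes whose FPKM averaged 0.05 or more, with Benjamini-Hochberg adjustment over all those genes and a threshold of 0.05. The scripts were first tested on simulated data. Alternatives were pseudocounts of 0.1 and 0.01, no filter, a filter at a mean of 1 FPKM, a fit over all 9 libraries, median-ratio scaling, a replicate block, no trend, the count models and each library left out.

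The members and lists were chosen with earlier results of these data known. Any member could be named, and values in every library were given for the 5 largest log2 fold changes in each direction of each comparison and the 5 highest mean levels of each group. Other members were given in full after their values were seen. Protein sequences were not used here.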

Additional observations from a re-analysis of the deposited data

How the results depend on the processing

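For single members, no direction of a called result reversed under any alternative. Between CD11b+ and CD11b- B cells, 180 of 186 values for 11 members kept their side of the threshold and 6 passed it newly. Against PMs, 350 of 396 values for 25 members kept it in CD11b+ B cells, with 20 new and 26 lost calls, and 394 of 446 values for 28 members kept it in CD11b- B cells, with 6 new and 46 lost. Leaving out each library in turn ended a call in CD11b+ B cells against PMs for *Dtx3l*, *Irf9*, *Oas2* and *Trim30a*, and in CD11b- B cells for *Gbp3*, *Gbp7*, *Ifih1*, *Ifit3*, *Oasl2*, *Stat2* and *Trim30a*. The adjusted p by limma then ran from 0.0514 (*Trim30a*, CD11b+) to 0.123 (*Trim30a*, CD11b-). In CD11b+ B cells *Dtx3l* was lost without CD11b+ replicate 1 or 2, *Trim30a* without any CD11b+ replicate, and *Irf9* without any of these or PM replicate 2. In CD11b- B cells *Ifih1* was lost without CD11b- replicate 2, *Gbp3* without CD11b- replicate 2 or 3 or PM replicate 3, *Gbp7* without any CD11b- replicate or PM replicate 3, *Oasl2* without CD11b- replicate 2 or 3 or PM replicate 1 or 2, and *Stat2* and *Trim30a* without any CD11b- replicate or PM replicate 2, or PM replicate 1 (*Stat2*) or 3 (*Trim30a*). The cause was not tested.

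Over all genes, the 15 calls between CD11b+ and CD11b- B cells became 37 with a pseudocount of 0.1, 25 with 0.01, 2 with no filter, 31 with a minimum mean FPKM of 1, 36 with all 9 libraries in one fit, 42 with edgeR and 392 with DESeq2. Leaving out each library gave 3 to 40, the lowest without CD11b- replicate 1 and the highest without CD11b+ replicate 3. Members called higher in this comparison numbered 5 with DESeq2 and 0 to 1 without each library, the 1 without CD11b+ replicate 3, and DESeq2 called 1 pathway gene. The members' median ran from 0.03 (without CD11b+ replicate 1) to 0.23 without each library, and was 0.07 without CD11b- replicate 3.

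In CD11b+ B cells against PMs, the members called lower became 12 with median-ratio scaling, 13 with edgeR and 14 with DESeq2, and those called higher became 7 with edgeR. Of all genes, 11.6%, 18.1% and 15.4% were then lower, against 8.78% in limma, and 18.7% higher with edgeR. The members' median became 0.10, −0.034 and −0.021, respectively, and 0.21 (without PM replicate 3) to 0.61 (without PM replicate 1) without each library. Members called higher ran from 9 to 15, and lower from 6 to 8. In the same fits, all genes called in either direction ran from 4500 to 6945. In CD11b- B cells against PMs, the members called lower became 18 with DESeq2 (19.2% of all genes) and 7 (without CD11b- replicate 2) to 11 without each library, and those called higher 12 to 14. In the fits without a library, all genes called in either direction ran from 5659 to 8297. The members' median became −0.33 with median-ratio scaling, −0.49 with edgeR and −0.52 with DESeq2, and ran from −0.038 (without PM replicate 3) to 0.34 (without PM replicate 1).

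Whether the replicate numbers pair the B cell libraries is not known. The correlations of libraries with the same title number were 0.203, −0.0115 and 0.167, so not every pair was correlated, and the correlated libraries of replicates 1 and 3 also share a number in their descriptions. With the replicate block by title number 16 genes and 0 members were called between the B cell groups, and 11 members higher and 7 lower in CD11b+ B cells against PMs. The share of all genes called against PMs with that block is not given here. With the replicate block by the numbers of the descriptions, which leaves 2 pairs, 0 genes were called. Depth limits *Oas1g*, *Ifitm2*, *Ifit3b*, *Ifi44*, *Rsad2* and *Iigp1* and, in the pathway list, *Ifng*, *Ifnlr1*, *Cgas* and *Tlr3*, which had under 100 reads in at least 1 B cell library.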
